A study of Mus musculus with 9 samples.

Results

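The miRNA names miR-6366, miR-3963, miR-3960, miR-6538, miR-5128, miR-6360 and miR-1904 are described here in lung RNA of 9 mice read on miRNA arrays. They are 7 of the 1881 mouse miRNAs that the array reads, and 7 of the 404 that entered the tests, each detected throughout 1 or more groups. They were picked as database entries with weak annotation that either gave a bright signal or differed between the groups of mice. Their signal levels and their differences between groups therefore chose them, and both are given below as description, without a test. Lung RNA was labelled with the dye Cy3 and hybridised to Agilent single-colour miRNA arrays, 1 for each mouse. The control group (n = 3, 1 male and 2 females) has no treatment named in the labels. The model group (n = 3, all female) carries D-galactose and sodium nitrite, agents used together to imitate ageing in mice, and 42 days. The codonopsis group (n = 3, 2 males and 1 female) carries the plant Codonopsis pilosula, with a dose of 15 g per kg and a time of 30 days, and its sample labels leave unstated whether D-galactose and nitrite were given as well. Strain and age are not in the labels, so each group is known only by its agent, its days and its sex.

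A canonical miRNA is cut from a folded primary transcript by Drosha and Dicer, loaded into an Argonaute protein, and guided to target mRNAs mainly by its seed, the bases from position 2 to 8. Many later database entries rest on few sequencing reads, lie in repeats, in short introns or at the start of a host gene, or match fragments of other RNAs such as ribosomal RNA, and an array probe reads any labelled RNA that pairs with it. In mouse osteoblasts, miR-3960 is known to repress Hoxa2 and its neighbour miR-2861 to repress Hdac5, and both are made from 1 gene cluster. For the other 6 names no established role is given here.

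The sequences are shown because base composition and place in the genome set the 7 names apart from each other. They come from RefSeq (build GRCm38.p6), which supplied a mature sequence for 5 of the 7 and a hairpin for miR-3960. Sequences run 5′ to 3′. Capitals mark the seed of a mature miRNA and, in the hairpin, the longest run made only of G and C.
mmu-miR-6366: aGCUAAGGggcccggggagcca
mmu-miR-3963: uGUAUCCCacuucugacac
mmu-miR-3960 hairpin: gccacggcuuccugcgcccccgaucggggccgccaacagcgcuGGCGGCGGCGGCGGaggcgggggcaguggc
mmu-miR-6538: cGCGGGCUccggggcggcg
mmu-miR-5128: cAAUUGGGgcuggcgagauggcu
mmu-miR-1904: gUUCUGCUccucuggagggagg
mmu-miR-2861 (neighbour of miR-3960): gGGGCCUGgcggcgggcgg

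None of the 5 mature seeds occurs in any other of the 1738 mature mouse miRNAs of the RefSeq table, so these names form no seed family. The GC content of miR-6538 was 94.7%, higher than 99.8% of that table, whose median was 52.2%. The miR-3960 hairpin reached 82.2% GC, above 99.6% of the 1005 hairpins. miR-6366 had 72.7%, miR-1904 63.6% and miR-5128 60.9%. Only miR-3963, at 47.4%, lay under the table's median. The longest run of bases shared by any pair of the 5 mature sequences was 3 to 6 bases, and miR-6538 and miR-5128 each shared a run of 7 bases with the miR-3960 hairpin.

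The places of these sequences also differ. The miR-3960 hairpin, at chr2:32712900-32712972 on the minus strand, and the mature miR-2861, at chr2:32712819-32712837 on the same strand, both fall in the window from 250 bases before to 50 bases after the start of Cdk9, the kinase of the transcription elongation factor P-TEFb. Mature miR-6538 (chr12:26414970-26414988, minus strand) lies inside Rnf144a, a ubiquitin ligase gene. Mature miR-5128 (chr2:37688212-37688234, minus strand) lies inside Strbp, which codes for an RNA-binding protein. Mature miR-1904 (chr13:109903819-109903840, plus strand) lies inside Pde4d, a phosphodiesterase gene for cyclic AMP. In these 3 cases the miRNA and the gene run on the same strand. Mature miR-6366 (chr16:18165093-18165114, minus strand) and miR-3963 (chr3:151023839-151023857, minus strand) have no other RefSeq gene within 250 bases. Exon, intron and UTR limits were not used here.

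At most 484 miRNAs were detected on an array, and the 75th percentile of signal ran from 244.5 to 538.2. Control 1 stood apart, with the lowest 75th percentile and a median correlation of 0.886 with the other arrays, against 0.951 to 0.978 for the rest. Slide 2 held the 3 control arrays and slide 1 all of the treated ones. In either comparison with control, an effect of the slide and one of the group therefore cannot be told apart. The model arrays and codonopsis 3 shared a slide row, and codonopsis 1 and 2 lay in the other row of slide 1. Markers of lung endothelium, epithelium, multiciliated cells, smooth muscle, red cells, leukocytes and lymphocytes were detected on all arrays, as 20 of 20 listed miRNAs. Of 5 listed miRNAs of other organs, the brain miR-124-3p was detected on none, the heart miR-208a-3p on 1 array and the liver miR-122-5p on 3. The striated muscle miR-133a-3p and miR-1a-3p were detected on all 9.

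The word bright fits only miR-6366 and miR-3963. All 7 names were detected on all 9 arrays and none had a saturated spot. By processed signal, miR-6366 ranked first of all miRNAs on 8 arrays and second on control 1, where miR-3963 ranked first. miR-3963 had rank 2 on control 2 and rank 3 or 4 on the others. The lowest rank of the other names was 91 for miR-3960, 192 for miR-5128, 247 for miR-1904, 332 for miR-6360 and 394 for miR-6538. These ranks describe fluorescence, which also depends on how well a probe binds, and not the number of molecules.

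Together the 7 names carried 39.8%, 23.6% and 26.4% of the summed miRNA signal on control 1, 2 and 3. Their share was 23.9%, 23.5% and 25.4% on the model arrays, and 21.6%, 22.0% and 27.5% on the codonopsis arrays. The group means were 29.96% ± 8.67 (SD, n = 3), 24.3% ± 0.990 and 23.7% ± 3.31. Control 1 was the one array above all others, and the groups overlapped. The 5 names other than miR-6366 and miR-3963 made up 0.137% to 0.236% of the signal.

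**Figure D1:**
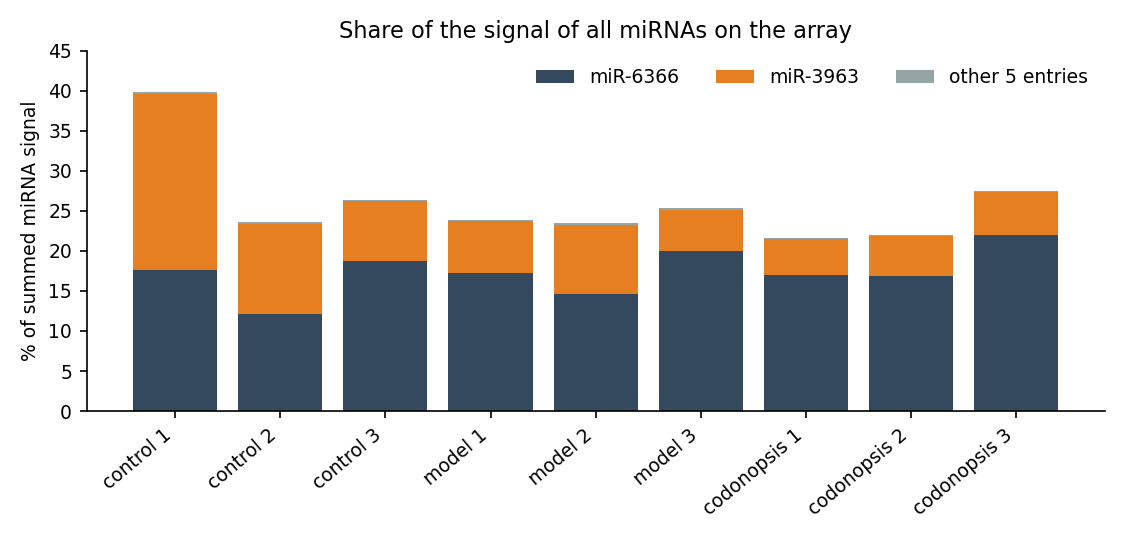
Share of the summed processed signal of all miRNAs (%) on each of the 9 arrays, split into miR-6366, miR-3963 and the 5 remaining names, whose segment is barely visible. Control 1 reaches 39.8%, and the other arrays lie between 21.6% and 27.5%.

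Levels from here on are log2 of the processed signal after division by the array's 75th percentile over the 289 miRNAs detected everywhere, and a difference is that of 2 group means, given with its standard error (SE) from the model of all 404 miRNAs. In the model lungs against control, 4 of the 7 names were higher and 3 lower, with a median difference of 0.10 beside 0.04 over all tested miRNAs. The arrays of the groups did not overlap for 3 of the 7, where 23.3% of all tested miRNAs showed no overlap. Of these, 1 name was above the controls (14.4% of all tested) and 2 were below (8.91%). In codonopsis against model lungs, 2 names were higher and 5 lower, with a median of −0.36 beside −0.11 over all. Groups did not overlap for 3 names, all with codonopsis below (22.3% of all tested, and 37.1% in either direction). In codonopsis against control lungs, 2 were higher and 5 lower, with a median of −0.56 beside −0.03. Groups did not overlap for 6 of the 7 (12.6%), with 1 above (5.69%) and 5 below (6.93%). The names were chosen on these contrasts, so nothing is read from the counts. The 3 comparisons share arrays and are not independent of each other.

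**Figure D2:**
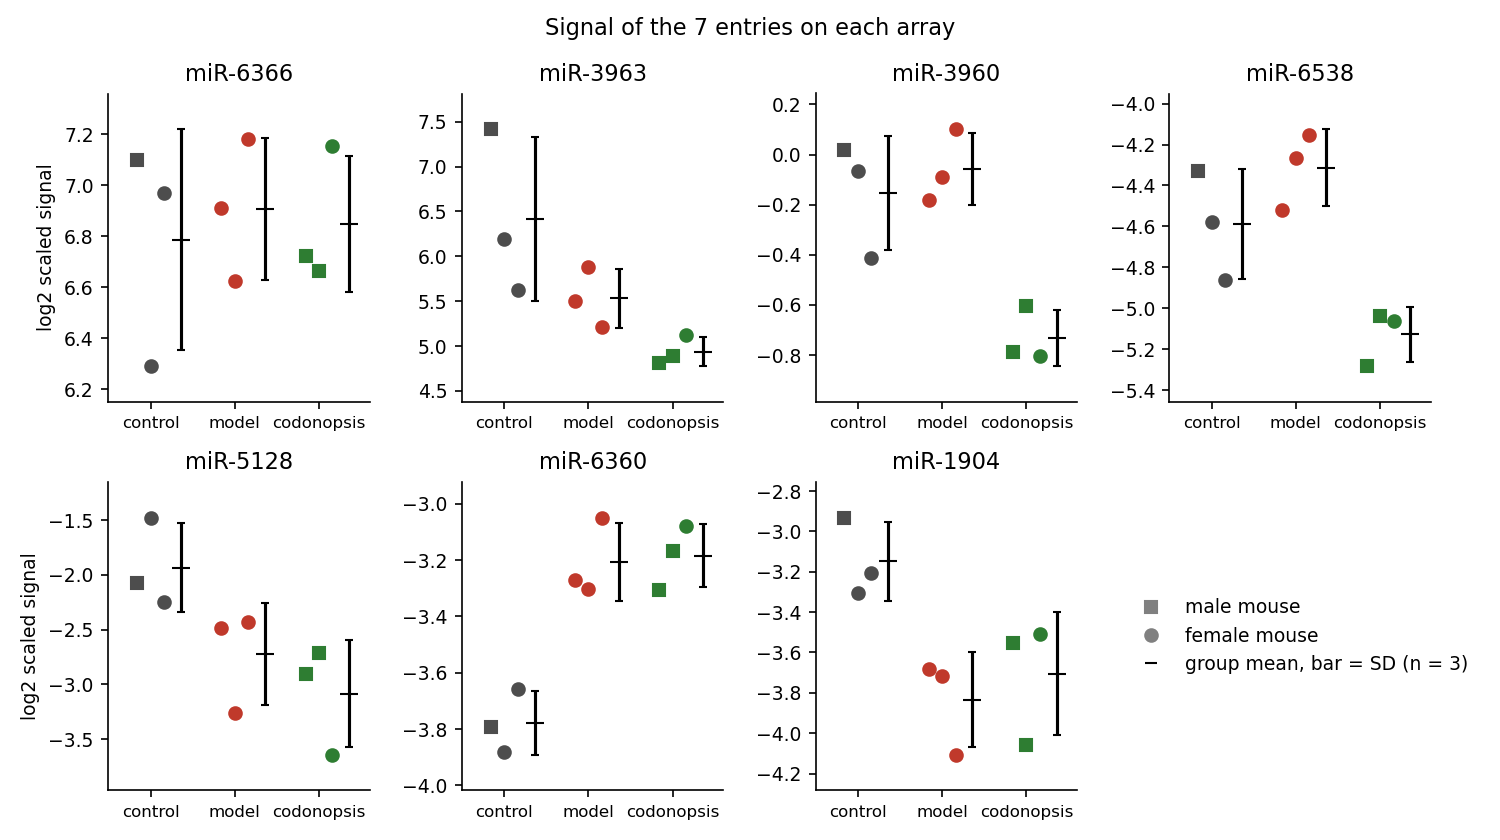
Log2 scaled signal of each of the 7 names on each array, by group, with squares for male and circles for female mice and bars for the group mean ± SD (n = 3); each panel has its own axis. miR-3960 and miR-6538 sit lower on all 3 codonopsis arrays than on any other array, and miR-6360 sits higher on all 6 treated arrays than on any control array.

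miR-6366, the brightest name, differed by at most 0.12 in any of the 3 comparisons. Its level was 7.10, 6.29 and 6.97 on the control arrays, 6.91, 6.62 and 7.18 on the model arrays, and 6.72, 6.67 and 7.15 on the codonopsis arrays. The group means were 6.79 ± 0.43 (SD, n = 3), 6.90 ± 0.28 and 6.85 ± 0.27. The lowest value, on control 2, and the 2 highest, on model 3 and codonopsis 3, came from female mice of 3 different groups, and all groups overlapped. The differences were 0.12 for model minus control, −0.06 for codonopsis minus model and 0.06 for codonopsis minus control (SE 0.26 each), smaller than the SD over mice within a group.

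miR-3963 was the name with the widest range, 6.09-fold between control 1 and codonopsis 1. Its level was 7.42, 6.19 and 5.63 in control lungs, 5.50, 5.88 and 5.22 in model lungs, and 4.81, 4.88 and 5.12 in codonopsis lungs. Every codonopsis array was below every other array, whereas model and control overlapped between 5.63 and 5.88. The mean level was 6.41 ± 0.91 (SD, n = 3) in control, 5.53 ± 0.33 in model and 4.94 ± 0.16 in codonopsis lungs. In bulk tissue, fewer cells that hold an RNA and less of it per cell cannot be told apart, for this and for all other names.

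Codonopsis minus control was −1.47 (SE 0.42), a 2.78-fold lower signal, and −0.97 (SE 0.25) without control 1. Model minus control was −0.88 (SE 0.42), and it was −0.38 without control 1 and −1.27 without control 3. That log2 difference therefore depended strongly on single control arrays. Codonopsis minus model, within 1 slide, was −0.59 (SE 0.42). The only female codonopsis array, at 5.12, lay in the same slide row as the 3 female model arrays and below their lowest value of 5.22. With sex as a covariate this difference was −1.004. It was −0.15 under quantile normalization, −0.32 with the brighter probe alone and −0.55 with arrays scaled by the median. Under these 3 settings the groups overlapped. Quantile normalization sets values by rank, and miR-3963 held rank 3 on the model arrays and rank 3 or 4 on the codonopsis arrays. The −0.15 therefore had little room to differ from 0. The scaled signal of the 2 leukocyte markers was also summed, on the linear and not the log2 scale. This sum ran from 2.08 to 8.60 in control, 2.12 to 3.45 in model and 2.09 to 3.20 in codonopsis lungs. Its part in the levels of miR-3963 was not tested.

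miR-3960, by its hairpin, and miR-6538, by its mature sequence, are rich in G and C. Both were lower on every codonopsis array than on any model or control array. A link between base composition and these levels was not tested. The level of miR-3960 was 0.02, −0.06 and −0.41 in control lungs, −0.18, −0.09 and 0.10 in model lungs, and −0.79, −0.60 and −0.80 in codonopsis lungs. Control and model values were interleaved, and the gap to the nearest codonopsis array separated all 3 of these from the other 6 arrays. Group means were −0.15 ± 0.23 (SD, n = 3), −0.06 ± 0.14 and −0.73 ± 0.11. Codonopsis minus model was −0.68 (SE 0.16), or 1.60-fold lower, codonopsis minus control was −0.58, and model minus control was 0.10.

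The level of miR-6538 was −4.33, −4.58 and −4.86 in control lungs, −4.52, −4.27 and −4.15 in model lungs, and −5.28, −5.04 and −5.06 in codonopsis lungs. Here too the control and model arrays overlapped and the codonopsis arrays stood below them. Group means were −4.59 ± 0.27 (SD, n = 3), −4.31 ± 0.19 and −5.13 ± 0.14. Codonopsis minus model was −0.81 (SE 0.18), or 1.76-fold lower, codonopsis minus control was −0.54, and model minus control was 0.28. This is the dimmest of the 7 names, with a processed signal of 12.0 to 22.6. On control 1, 0 and 2 of the 15 spots of its 2 probes were well above background, against 12 to 15 on each model array. On codonopsis 1, 2 and 3 they were 1, 1 and 3 of 15 on the first probe and 8, 9 and 13 on the second, so the codonopsis level of this name is read near background. Without control 1, model minus control was 0.41 and the model arrays lay above the other 2 controls.

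The codonopsis and model arrays of both names share a slide, but sex and slide row differ between them. Codonopsis 3, a female mouse in the same row as the model arrays, was at −0.80 for miR-3960 and −5.06 for miR-6538, both below all 3 model values. Codonopsis stayed below model without overlap for both names under every other scale, signal, probe and spot setting. Leaving an array out cannot make separate groups overlap, so those settings could not break this. Over all alternatives the difference was −1.04 to −0.50 for miR-3960 and −1.31 to −0.23 for miR-6538. The weakest value of miR-6538 came with a background model that adds a constant to every spot. Against control, the separation depended on the scale. With the 75th percentile over all miRNAs, the codonopsis and control arrays overlapped for both names. For miR-6538 they also overlapped under quantile normalization, with the background model and in the deposited value table.

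Across the 9 arrays these 2 names followed each other most closely of the 21 pairs, with Pearson's r of 0.96 and Spearman's rho of 0.90. The value was 0.96 without control 1, and 0.88 for deviations from the group means. The 21 values ran from −0.82 to 0.96 with a median of 0.07, and all pairs share the same 9 RNA samples and array scales.

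miR-2861 was set beside miR-3960 because both lie ahead of Cdk9. The GC content of mature miR-2861 was 94.7%, the same as that of miR-6538. The level of miR-2861 was −4.12, −4.26 and −4.16 in control lungs, −3.97, −3.71 and −3.68 in model lungs, and −4.38, −4.31 and −3.94 in codonopsis lungs. Each model array was above each control array, while codonopsis 3 overlapped with the model arrays. It was not among the chosen names and was tested: model minus control was 0.39 (SE 0.16, limma adjusted p = 0.39), codonopsis minus model was −0.42 (adjusted p = 0.413) and codonopsis minus control was −0.03 (adjusted p = 0.971). None passed the threshold of 0.05 after Benjamini-Hochberg adjustment over all 404. Side by side, miR-3960 and miR-2861 read −0.68 and −0.42 in codonopsis minus model, −0.58 and −0.03 in codonopsis minus control, and 0.10 and 0.39 in model minus control. The differences between the 2 neighbours were not tested.

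miR-5128 and miR-1904 were both lower in the model and codonopsis lungs than in any control lung. The level of miR-5128 was −2.08, −1.48 and −2.25 on the control arrays, −2.48, −3.26 and −2.43 on the model arrays, and −2.90, −2.71 and −3.64 on the codonopsis arrays. The treated groups overlapped, with model 2 and codonopsis 3 as the lowest arrays. Group means were −1.93 ± 0.41 (SD, n = 3), −2.72 ± 0.47 and −3.09 ± 0.49. Model minus control was −0.79 (SE 0.34), codonopsis minus control was −1.15, or 2.22-fold lower, and codonopsis minus model was −0.36. Without model 2, model minus control was −0.52. With slide row as a covariate it was 0.04. All controls lay in row 1 and all model arrays in row 2. The row effect therefore came only from codonopsis 3 against codonopsis 1 and 2. With the 75th percentile over all miRNAs, under quantile normalization and in the deposited value table, both treated groups overlapped control for miR-5128. With arrays scaled by the median, the model and control arrays overlapped for it.

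The level of miR-1904 was −2.93, −3.31 and −3.21 on the control arrays, −3.68, −3.72 and −4.11 on the model arrays, and −3.55, −4.06 and −3.51 on the codonopsis arrays. The lowest control value, −3.31, lay above the highest treated value, −3.51, by a small margin. Group means were −3.15 ± 0.19 (SD, n = 3), −3.83 ± 0.24 and −3.71 ± 0.30. Model minus control was −0.69 (SE 0.21), or 1.61-fold lower, codonopsis minus control was −0.56, and codonopsis minus model was 0.13. This separation from control depended on the scale. In the deposited value table, model minus control was −0.11, and with the 75th percentile taken over all miRNAs it was −0.12. Under both settings the treated groups overlapped control for miR-1904. They also did so under quantile normalization and with the background model.

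miR-6360 was the one name whose arrays lay above all controls, without overlap, in both treated groups. Its level was −3.79, −3.88 and −3.66 in control lungs, −3.27, −3.30 and −3.05 in model lungs, and −3.30, −3.17 and −3.08 in codonopsis lungs. All 6 treated arrays were above all 3 controls, and the treated groups were interleaved. Group means were −3.78 ± 0.11 (SD, n = 3), −3.21 ± 0.14 and −3.18 ± 0.11. Model minus control was 0.57 (SE 0.13), or 1.48-fold, codonopsis minus control was 0.59, or 1.51-fold, and codonopsis minus model was 0.02. Without control 1 the first 2 differences were 0.56 and 0.59. Control and treated arrays lay on different slides, so the slide and the treatment cannot be told apart here, and the same holds for miR-5128 and miR-1904.

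**Figure D3:**
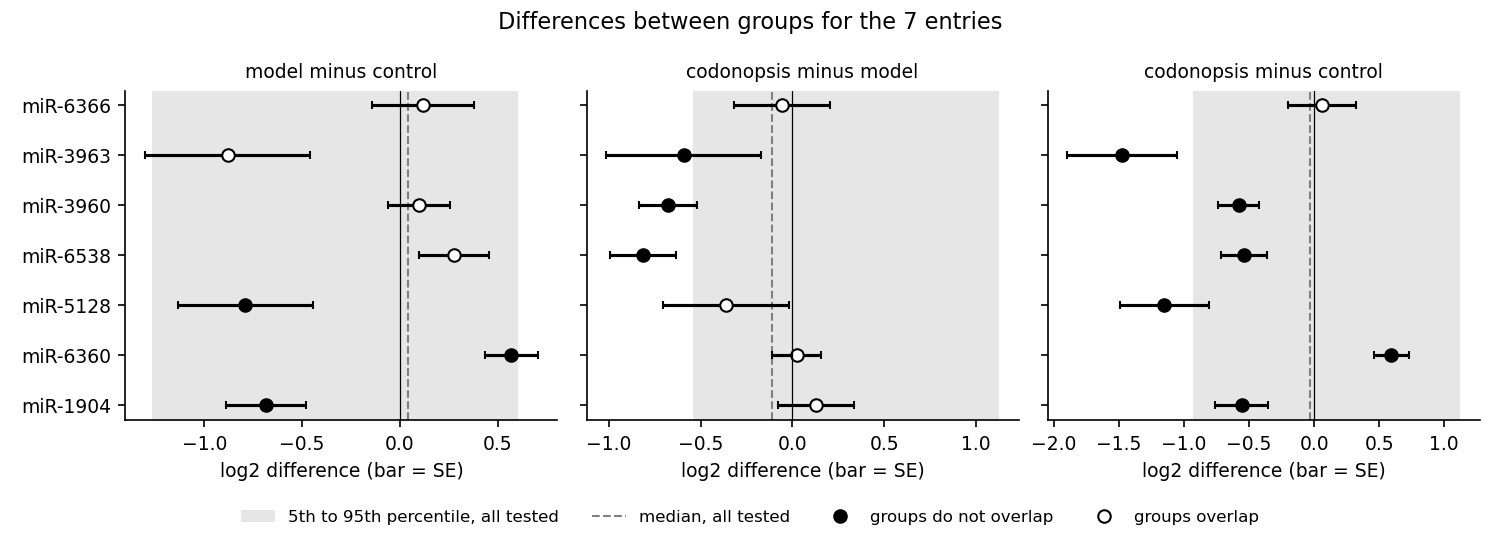
Differences of group means (log2, bars for SE of the fit) of the 7 names in the 3 comparisons; filled points mark names whose groups do not overlap, and the grey band spans the 5th to 95th percentile of all 404 tested miRNAs. miR-3963, miR-3960 and miR-6538 lie below the band in codonopsis minus model, and miR-3963 and miR-5128 lie below it in codonopsis minus control.

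Each name was read by 2 probes of 15 spots each, which gives a second reading of the same RNA though not of another mouse. Both probes gave the same sign for each of the 7 names in each of the 3 comparisons. For miR-3963, codonopsis minus control was −2.06 on the first probe and −1.30 on the second. For miR-5128 the same difference was −1.41 and −1.13, where the first probe was dim, at a processed signal of 4.24 to 35.0. For miR-6538, codonopsis minus model was −0.95 and −0.72, for miR-3960 −0.69 and −0.66. For miR-6360, model minus control was 0.60 and 0.54, and for miR-1904 it was −0.73 and −0.62.

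The mean over the spots of an array was known more closely than the mean over mice. The SE of the mean over spots was at most 0.022 on the log2 scale for miR-6366 and 0.053 for miR-3963, where the pooled SD over mice was 0.34 and 0.57. For miR-6538 it was 0.029 to 0.071 against 0.20 over mice, and for miR-1904 0.031 to 0.132 against 0.25. This SE was below the pooled SD over mice for all 7 names. Single spots spread more widely, with a coefficient of variation over the spots of a probe of up to 8.92% for miR-6366, 27.2% for miR-6538 and 50.8% for miR-1904.

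**Figure D4:**
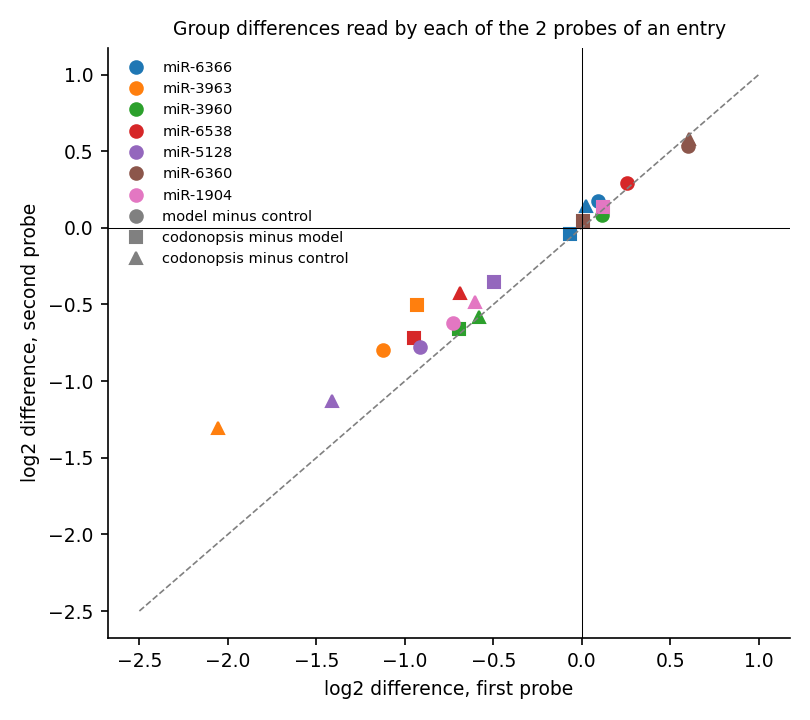
Group difference (log2) on the second probe against that on the first for each of the 7 names (colours) in the 3 comparisons (symbols); the dashed line marks equality. All 21 points have the same sign on both axes, and the points of miR-3963 lie farthest from the line, at −2.06 and −1.30 for codonopsis minus control.

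Because the array scale enters each level, the differences were also set out under the other ways of processing. Other scales moved the median of all 404 miRNAs in model minus control, from 0.04 as reported to as much as 0.62 with the 75th percentile over all miRNAs on the array. miR-6360 then read 1.14, miR-1904 −0.12, miR-5128 −0.22 and miR-3963 −0.31. With the background model, miR-6360 read 0.17 in model minus control and 0.13 in codonopsis minus control, and the groups overlapped in both. Its codonopsis and control arrays also overlapped with the 75th percentile over all miRNAs, under quantile normalization and in the deposited value table. In codonopsis minus control the 16 alternatives that could move a difference all kept the sign of each of the 6 names whose groups did not overlap. The lack of overlap itself held in 20 of all 21 alternatives for miR-3963 and miR-3960. It held in 18 for miR-5128 and in 17 for miR-6538, miR-6360 and miR-1904. Only 14 of the 21 changed the arrays or values compared, and those that left an array out could not create an overlap. Each loss of separation therefore came with another scale or signal.

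**Figure D5:**
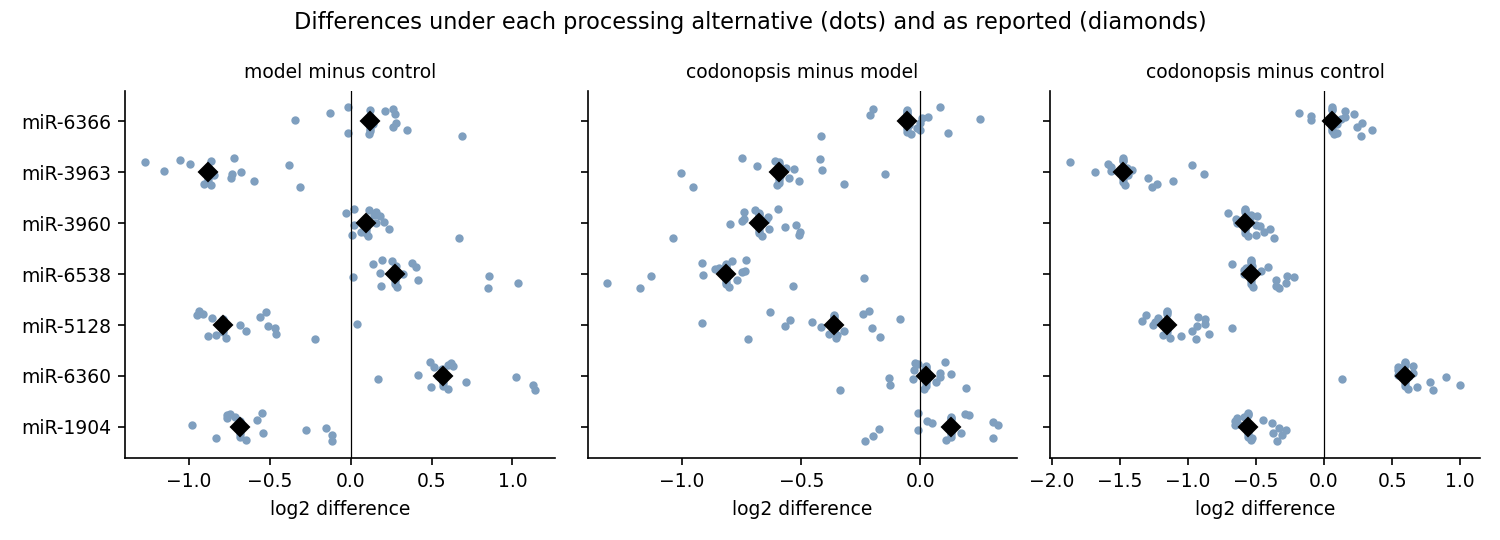
Difference of group means (log2) of each name as reported (diamonds) and under each processing alternative (dots) in the 3 comparisons. In codonopsis minus model all dots of miR-3960 lie between −1.04 and −0.50 and those of miR-6538 between −1.31 and −0.23, while in model minus control the dots of miR-5128 reach 0.04.

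The other pairs among the 7 were looser. miR-6360 ran against miR-1904 (r = −0.82), miR-5128 (r = −0.76) and miR-3963 (r = −0.76) over the 9 arrays, but within groups these values were −0.34, −0.22 and −0.32. miR-3963 and miR-1904 had r = 0.73, and 0.49 without control 1. miR-6366 was close to 0 with miR-3963, at 0.01, although the 2 are the brightest names.

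Outside the 7 names, the miRNA most like miR-3960 and most like miR-6538 was the same, miR-214-3p, a miRNA of mesenchymal cells, with r = 0.89 and 0.88 over 9 arrays. Next came miR-92a-3p (0.82) for miR-3960 and miR-211-3p (0.81) for miR-6538, and then miR-8110 for both, at 0.80 and 0.80. miR-214-3p itself had mean levels of −2.17, −2.204 and −2.58 in control, model and codonopsis lungs. The scaled signal of the 4 smooth muscle and fibroblast markers, which include it, was summed on the linear and not the log2 scale. This sum was 2.81 to 3.52, 2.44 to 2.66 and 2.06 to 2.92 in the same order. Its part in the lower miR-3960 and miR-6538 was not tested.

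miR-3963 was most like miR-706 (r = 0.92), miR-6965-5p (0.91) and miR-1231-5p (0.90), and without control 1 these were 0.80, 0.69 and 0.71. miR-6366 was most like miR-212-3p (0.84), then miR-8117 (0.73) and miR-582-3p (0.72). miR-5128 was most like miR-3473e (0.85), miR-6984-5p (0.80) and miR-3102-5p.2-5p (0.80). For miR-1904 the closest were miR-700-3p (0.88), miR-186-5p (0.85) and miR-697 (0.85). For miR-6360 they were miR-466f-5p (0.82), miR-582-3p (0.81) and miR-188-5p (0.79). These values describe 9 arrays that share scale and slide, and each was picked as the highest among the other tested miRNAs.

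Other entries with names of the same form did not move as one. Of the 34 other tested miRNAs with a number of 1000 or more and no arm suffix in their name, 13 were higher and 21 lower in model than in control lungs, with a median of −0.12. Their groups did not overlap for 4, beside 23.3% of all tested. In codonopsis against model lungs 17 were higher and 17 lower (median −0.01), with no overlap for 29.4%, beside 37.1% of all tested. In codonopsis against control lungs 14 were higher and 20 lower (median −0.09), with no overlap for 2.94%, beside 12.6%. The 7 names have this form too but were left out of the 34. They were picked partly for such differences, so the counts of the 2 sets are not compared. The GC content of the 5 names with a mature sequence ran from 47.4% to 94.7%. The 198 other tested miRNAs within that range had medians of −0.01, −0.05 and −0.05 in the 3 comparisons. That list is not limited to GC-rich miRNAs. Of 8 entries known to match ribosomal RNA, 5 were on the array. miR-712-5p, which comes from a spacer of the ribosomal RNA precursor in mouse, was detected on 2 arrays and the other 4 on none, so no member of that list was tested. Matches of the 7 names themselves to ribosomal RNA were not tested.

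Sex was not used to choose the names, so male minus female was tested, with group as a covariate. The difference was 0.62 (SE 0.41, limma adjusted p = 0.355) for miR-3963 and 0.31 (SE 0.36, adjusted p = 0.586) for miR-5128. It was 0.18 (adjusted p = 0.476) for miR-3960 and 0.15 (adjusted p = 0.616) for miR-6538. For miR-6366, miR-1904 and miR-6360 it was 0.00, 0.02 and −0.09, with adjusted p of 0.997, 0.975 and 0.689. None of the 7 passed, and of all tested miRNAs 0 passed (0.0%), with 111 at an unadjusted p under 0.05. With limma's trend and robust options 0 passed as well, with 107 at an unadjusted p under 0.05. Only the control and codonopsis groups hold both sexes, with 1 mouse of the rarer sex in each: control 1 is the male control and codonopsis 3 the female of its group. Without control 1, male minus female of miR-3963 was −0.27, which sets codonopsis 1 and 2 against codonopsis 3 alone. Without codonopsis 3 it was 1.51, which sets control 1, the array that stood apart, against control 2 and 3. Each of these 2 values thus rests on 1 mouse of the rarer sex. With control 2 or control 3 left out, 24 or 20 miRNAs passed. With the 75th percentile taken over all miRNAs, the median of all 404 was −1.23, so the sign of a sex difference also depends on the scale.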

How the data were processed

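Lung RNA of 9 mice was read on Agilent single-colour miRNA arrays, 1 array a mouse and 3 mice a group; groups and sex come from the labels. Per the file headers, the deposited intensity was written by Agilent Feature Extraction 11.5.1.1 (the submitters' processing notes name 10.10), which corrected it for background and spatial trends; it is not scaled between arrays. The deposited value table holds log2 values of the authors, with 0.000001 where a miRNA was not detected; it followed the log2 total intensity of each array with r from 0.994 to 0.999, its columns had medians of 2.86 to 3.84 over detected miRNAs, and its normalization is not given in the sources used here. Other deposited columns are flags of 0 or 1.

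Spots marked as outliers or non-uniform (3.05% of 56430) were left out, and the mean was taken first per probe and then per miRNA. It was divided by the array's 75th percentile, counting only the 289 miRNAs detected throughout, floored at log2 −8 and put on the log2 scale. limma 3.58.1 in R 4.3.3 (lmFit and eBayes, two-sided) was fitted to 404 miRNAs, each detected on every array of 1 or more groups, with group as factor and 6 residual degrees of freedom, and, for male minus female, with sex added. Benjamini-Hochberg adjustment over the 404 was used, with a threshold of 0.05. The number of arrays limits the precision. The fit was checked on simulated data.

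The 7 names, the comparison lists and the tests were chosen with earlier results of these data known. All 7 are described, with the 3 miRNAs most like each in Pearson's r over 9 arrays, and miR-2861. Alternatives were other scales, signals, probes, spots and filters, sex or slide row as a covariate, and each array left out. Since the files hold no mean spot signal, the normexp background model (offset 50) was run on the median signal.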

Additional observations from a re-analysis of the deposited data

How the results depend on the processing

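Of 448 differences of the 7 names recomputed under alternatives, 112 could not move, since the setting changes neither group compared. Of the other 336, 285 stayed within 1 SD over mice of the reported value and 50 moved farther. Of those whose groups did not overlap, 1 changed sign: with slide row as a covariate, model minus control of miR-5128 was 0.042. The row effect in that fit came only from codonopsis 3 against codonopsis 1 and 2, which are in neither group compared. Male minus female, with the 75th percentile over the whole array, turned to −1.25 for miR-6366, −1.08 for miR-3960, −1.11 for miR-6538 and −1.24 for miR-1904. It turned to −1.02 for miR-6538 and −0.86 for miR-1904 under quantile normalization, and to −1.32 and −0.90 in the deposited value table. Under these 3 scales miR-6360 read −1.35, −1.07 and −1.25 and passed, as did each value of the 4 names just given; the scales moved the median of all tested miRNAs to −1.23, −0.53 and −0.52. The number of miRNAs called by sex was 248 under the 75th percentile over all miRNAs, 12 under the median scale and 141 under quantile normalization. It was 3 with the total signal, 126 in the value table and 32 with the brightest probe. A filter of 1 detected array gave 5. Leaving out 1 array other than control 1 and codonopsis 3 gave 0 to 24. For male minus female, the fit with slide row gave the same values as the fit without codonopsis 3. Both set control 1 against control 2 and 3 alone. The fits without control 1 and on slide 1 only set codonopsis 1 and 2 against codonopsis 3 alone. No count of called miRNAs is given for these fits. Slide as a random block could not be told from the reported fit, as the fitted correlation was 0. The number of miRNAs whose groups did not overlap in model minus control was 35 with that percentile, 35 with normexp and 144 with no filter, beside 94. In codonopsis minus model it was 97 with the brightest probe and 150 to 240 with 1 array left out, beside 150, with 240 without codonopsis 3. In codonopsis minus control it was 30, 21 and 86 under the settings named for model minus control, and 51 to 157 with 1 array left out, beside 51, with 157 without control 1. The share of signal was 20.7%, 17.4% and 16.7% in control, model and codonopsis lungs with normexp, and 27.8% in model lungs in the value table. The causes were not tested. With 3 mice a group, each difference rests on few arrays. The dim miR-6538 and the first probe of miR-5128 are close to background. On single arrays, the second probes of miR-6360 and miR-1904 had as few as 3 and 10 of 15 spots well above background. No paired analysis was possible because the numbers in the sample titles run within a sex and group and join no mice across groups.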
